A study of Mus musculus with 4 samples.

Results

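The primary cilium is a single antenna-like projection of the cell surface that neural precursors, neurons and astrocytes carry. It makes no protein of its own, so its parts and receptors are imported. Trains of the intraflagellar transport complexes IFT-B and IFT-A carry cargo along the axoneme, kinesin-II pulls the trains towards the tip, and the BBSome moves membrane receptors out. Proteins of the transition zone at the ciliary base act as a gate. In vertebrates, hedgehog signalling in the developing telencephalon runs through this organelle.

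The 36 genes described here encode 10 IFT-B subunits, 5 IFT-A subunits, 3 kinesin-II subunits, 7 BBSome subunits, 2 BBS chaperonin-like proteins, 3 ARL GTPases and 6 transition zone proteins. They were chosen as a list of names, and every non-control array probe whose RefSeq accession belongs to one of them was taken. This gave 47 probes for 36 of 36 genes, out of 20887 genes with a named probe. Of these, 44 probes of 35 genes were bright enough to be tested, and 34 of the 35 genes were well above background on all 4 arrays in both genotypes. Wdr19 was so on 3 arrays in either genotype. Ift140 was not tested, because its probe was well above background on 2 of 4 arrays in either genotype.

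The study set cultures from APPswe/PS1dE9 mouse embryos against cultures from wild-type (WT) embryos, all on the C57BL/6 strain. APPswe/PS1dE9 mice carry a mutant amyloid precursor protein transgene and a mutant presenilin transgene, both driven by the prion protein promoter, as a model of familial Alzheimer's disease. In both groups, neural precursor cells of the telencephalon at embryonic day 13 were grown for 5 days as neurospheres with EGF and FGF2. They were then differentiated for 7 days without these factors. From each culture 100 ng of RNA was labelled, and each of 4 two-colour arrays carried 1 APPswe/PS1dE9 and 1 WT culture. The dyes were exchanged: replicates 1 and 2 had APPswe/PS1dE9 RNA in Cy3, and for replicates 3 and 4 it was labelled with Cy5.

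In a channel of an array 47.5% to 59.6% of spots were well above background, and no spot was saturated. Over 26804 probes, the genotype ratios of 2 arrays had a Spearman rho of 0.54 and 0.46 between arrays of the same dye orientation, and of 0.10 to 0.25 between arrays of different orientation. By the X-linked Xist and the Y-linked Eif2s3y, the cultures on replicates 1 and 3 differed in sex, in opposite ways, and those on replicates 2 and 4 did not. Counts on replicates 2 and 4 alone, called same-sex arrays, are given beside most of the lists. The mouse App probe had a log2 ratio of 0.12 ± 0.06 (SE, n = 4 arrays), and its place relative to the transgene is not known here, so it checks nothing. Neuron, astrocyte, progenitor and oligodendrocyte markers were measured in full, 10 of 10, 11 of 11, 7 of 7 and 7 of 7 genes.

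Many cilium genes of animals hold an X-box before or near their start, the sequence that RFX transcription factors bind. The search used GTNNCC and GGNNAC with 0 to 3 bases between them, which reads the same on both strands, and separately the half-site GTTGCC on either strand, which may lie inside an X-box. Of the 36 genes, 32 had a RefSeq promoter window of 300 bases, 250 before and 50 after the start, in build GRCm38.p6. An X-box stood in the windows of 8 of these 32 genes (25%), against 4.38% of 27025 mouse genes. The half-site stood in 14 of the 32 (43.8%), against 14.1% of mouse genes. These shares are not particular to the 36 genes. In the lists of other cilium genes and motile cilium genes described below, 25.5% and 24.2% of genes had an X-box. The half-site stood in 30.9% and 57.6% of them. The stretches below are those of the higher genes with a match and of 5 other members with an X-box. Capitals mark the X-box, or the half-site where no X-box was found.
Tctn2: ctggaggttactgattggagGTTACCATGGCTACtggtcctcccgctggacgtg
Ift172: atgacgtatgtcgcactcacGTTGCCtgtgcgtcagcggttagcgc
Wdr35: gatgcgactgggcggcggtgGTTGCC
Wdr19: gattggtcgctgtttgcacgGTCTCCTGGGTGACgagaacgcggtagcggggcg
Mks1: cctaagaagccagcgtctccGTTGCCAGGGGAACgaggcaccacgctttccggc
Bbs7: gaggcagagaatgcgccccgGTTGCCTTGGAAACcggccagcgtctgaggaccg
Bbs1: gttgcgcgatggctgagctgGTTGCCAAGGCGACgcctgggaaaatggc
Ift57: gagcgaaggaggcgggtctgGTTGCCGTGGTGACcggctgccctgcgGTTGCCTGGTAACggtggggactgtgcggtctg
The stretch of Tctn2 is chr5:124598667-124598720 on the plus strand, that of Ift172 chr5:31291089-31291134 on the minus strand and that of Wdr35 chr12:8974021-8974046 on the plus strand. Those of Wdr19 and Mks1 are chr5:65199642-65199695 and chr11:87853171-87853224, both on the plus strand. The stretch of Bbs7 is chr3:36613477-36613530 and that of Bbs1 chr19:4906598-4906646, both on the minus strand. Ift57, with 2 X-boxes in a row, is shown at chr16:49699187-49699266 on the plus strand. The other members with an X-box were Bbs4 and Tctn1, and the window of Bbs9 held neither motif. All of these X-boxes have 2 bases between their arms but for the second in Ift57.

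The comparison asked whether genes of ciliary transport and gating differed between the genotypes. In APPswe/PS1dE9 cultures 5 of the 35 measured genes rose, none fell and 30 did not pass the test, which was limma with a dye term and Benjamini-Hochberg adjustment over all 26884 probes at an adjusted p of 0.05. The 5 were the transition zone gene Tctn2, the IFT-B genes Ift80 and Ift172, the IFT-A gene Wdr35 and the BBSome gene Bbs9, and they rose 1.25-fold to 1.35-fold. Their share, 14.3%, lies near the background: of 13658 measured genes 10.3% were higher and 2.16% were lower, and of all probes 6.89% were higher and 1.9% lower. The median log2 ratio of the 35 genes was 0.09, against 0.01 over all genes, with 24 ratios above 0 and 11 below. Over all 13658 genes, 7359 were above 0 and 6299 below. A culture with more cells of a ciliated type and a culture with more RNA per cell cannot be told apart in these samples.

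The direction of that median depended on the scaling. Under median centring without loess it was -0.01, with 16 ratios above 0 and 19 below, and with the scanner software's processed signals it was 0.01. Those scalings moved the median of all genes as well, to -0.08 and -0.05. The members' median stood 0.07 above that of all genes as analysed, 0.07 above under median centring and 0.06 above with the processed signals.

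**Figure D1:**
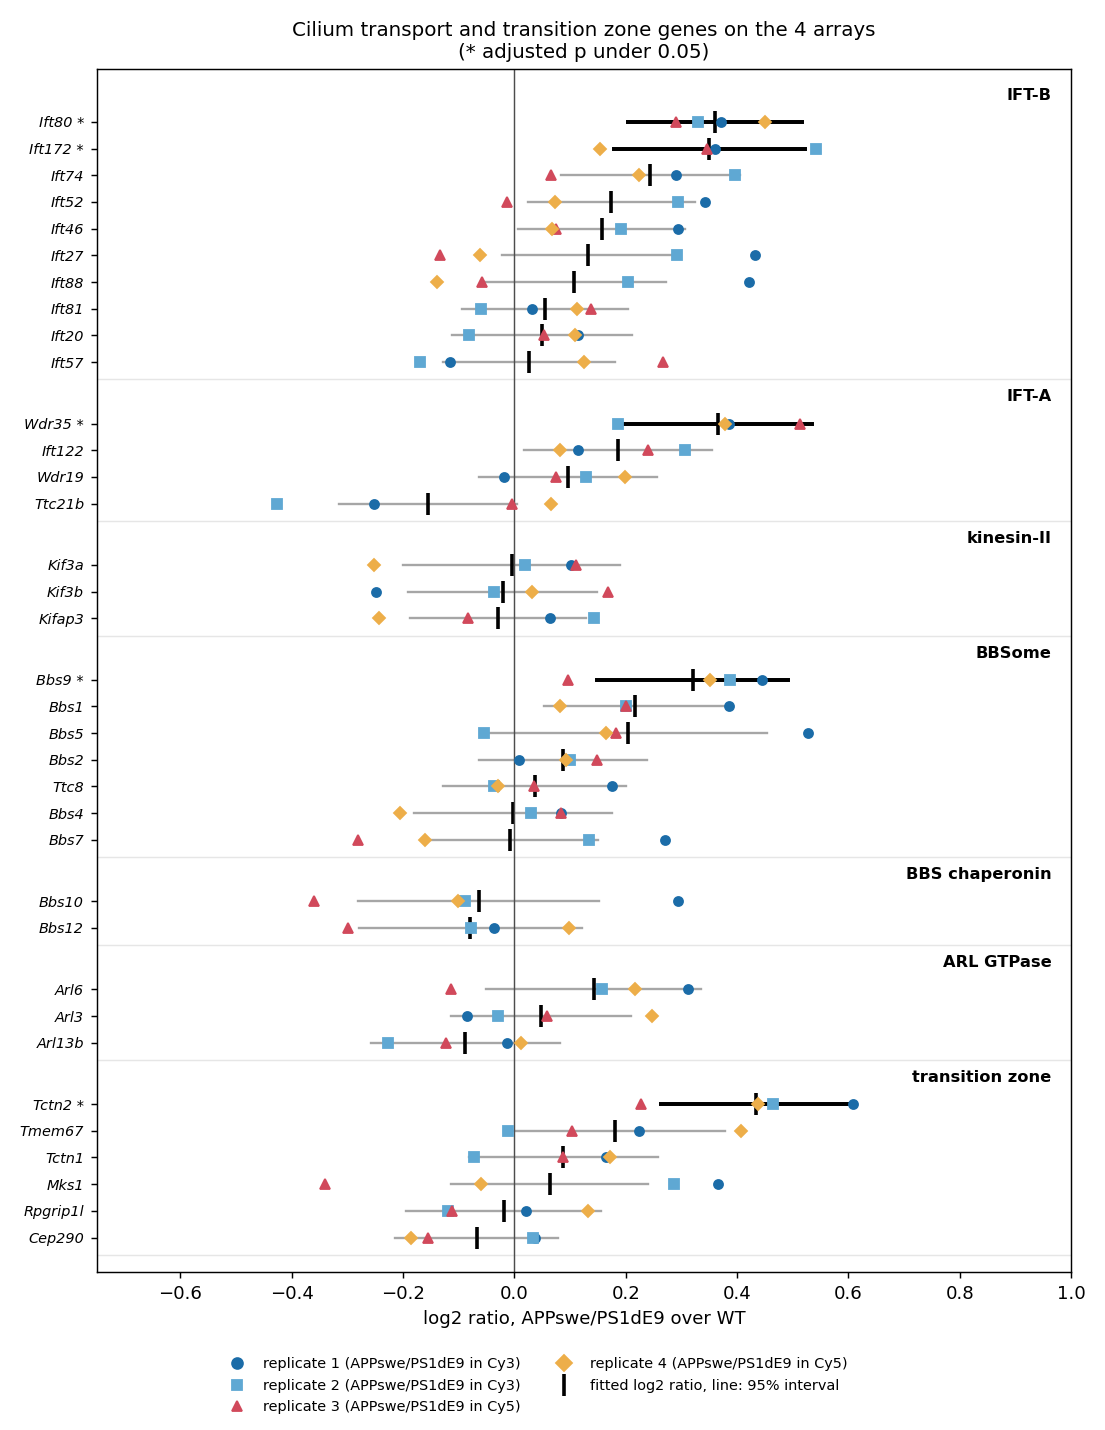
Log2 ratio of APPswe/PS1dE9 over WT (horizontal axis) of the 35 measured genes, by complex. Coloured points are the 4 arrays, black ticks the fitted ratios and lines their 95% intervals; the 5 starred genes lie right of 0 on all 4 arrays, and the lines of 25 of the other 30 cross 0.

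Tctn2 encodes a tectonic protein of the transition zone's membrane gate. Its probe A_66_P137943 had a log2 intensity of 11.18, 10.92, 10.87 and 10.89 in APPswe/PS1dE9 cultures on replicates 1 to 4, against 10.57, 10.45, 10.64 and 10.45 in WT cultures. Every APPswe/PS1dE9 signal lay above every WT signal. Tctn2 was 1.35-fold higher (log2 ratio 0.43 ± 0.07 SE, n = 4 arrays, adjusted p = 0.0167), the largest of the 35 ratios, and the array ratios were 0.61, 0.46, 0.23 and 0.44.

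Ift80 encodes an IFT-B subunit in which mutations cause skeletal dysplasia in humans. Its log2 intensity was 10.34, 10.17, 10.25 and 10.22 in APPswe/PS1dE9 cultures and 9.97, 9.84, 9.96 and 9.77 in WT cultures. The groups did not overlap, and the array ratios of 0.37, 0.33, 0.29 and 0.45 were the closest together of the 5 genes. The fitted ratio was 0.36 ± 0.06 (1.28-fold, adjusted p = 0.0233).

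Wdr35 encodes the IFT-A subunit also called IFT121. Its log2 intensity was 10.14, 9.92, 10.00 and 9.91 in APPswe/PS1dE9 cultures, against 9.76, 9.73, 9.49 and 9.53 in WT cultures. These groups did not overlap either, with array ratios of 0.39, 0.19, 0.51 and 0.38. Wdr35 was 1.29-fold higher (0.37 ± 0.07, adjusted p = 0.0277).

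Ift172 encodes the largest IFT-B subunit. It had a log2 intensity of 9.62, 9.47, 9.56 and 9.42 in APPswe/PS1dE9 cultures and of 9.25, 8.93, 9.21 and 9.27 in WT cultures. The lowest APPswe/PS1dE9 signal and the highest WT signal, both on replicate 4, were the nearest pair. The ratios of 0.36, 0.54, 0.35 and 0.15 gave a fitted 0.35 ± 0.07 (1.27-fold, adjusted p = 0.0342).

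Bbs9 encodes a scaffold subunit of the BBSome. Its log2 intensity was 10.15, 9.93, 9.81 and 10.26 in APPswe/PS1dE9 cultures, against 9.71, 9.54, 9.71 and 9.91 in WT cultures. The groups overlapped, since the WT signal on replicate 4 was above the APPswe/PS1dE9 signal on replicate 3, although APPswe/PS1dE9 was higher within each of the 4 arrays. The array ratios were 0.44, 0.39, 0.10 and 0.35, and the fitted ratio was 0.32 ± 0.07 (1.25-fold, adjusted p = 0.0453).

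**Figure D2:**
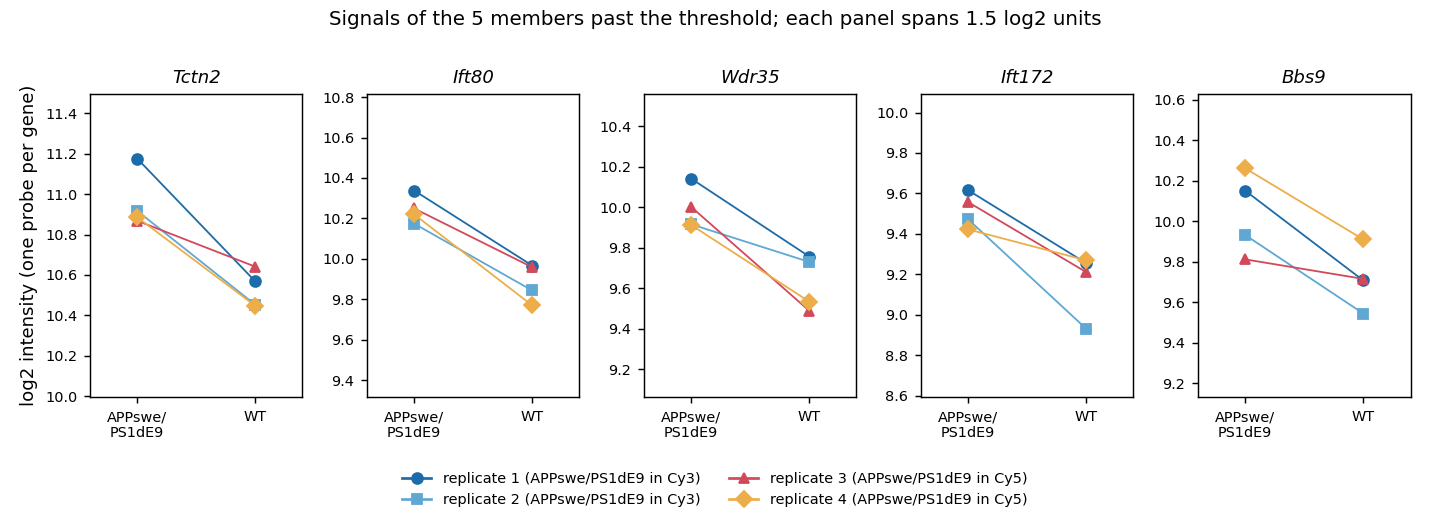
Log2 intensity (vertical axis, each panel 1.5 units high) of the 5 higher genes in APPswe/PS1dE9 (left) and WT (right) cultures, with a line joining the cultures of 1 array. On every array the APPswe/PS1dE9 point lies above its WT point, by least in Bbs9 on replicate 3, where the ratio was 0.10.

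The calls on Tctn2, Ift80, Wdr35, Ift172 and Bbs9 depended on the arrays used. None of the 5 passed limma's test without replicate 3 (adjusted p = 0.0828 for Tctn2 to 0.173 for Ift172), without replicate 4 (adjusted p = 0.132 for Tctn2 to 0.187 for Bbs9) or on the same-sex arrays, chosen after seeing the data (adjusted p = 0.203 for Tctn2 to 0.482 for Wdr35). At an unadjusted p of 0.05, 9, 8 and 3 of the 35 genes passed in those fits, beside 5158 of 26842, 5354 of 26842 and 3181 of 26824 probes. Without replicate 1, 4 of the 5 passed, all but Bbs9 (adjusted p = 0.0561), and without replicate 2 again 4, all but Ift172 (adjusted p = 0.0659). The log2 ratios stayed positive in each of these fits, from 0.26 for Bbs9 without replicate 4 to 0.49 for Tctn2 without replicate 3. The 5 genes also did not pass with the processed signals (adjusted p = 0.0721 for Ift80 to 0.143 for Bbs9), under median centring (0.0747 for Tctn2 to 0.222 for Bbs9) or without the filter on dim probes (0.0546 for Tctn2 to 0.121 for Bbs9).

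Over all 35 genes, 10 were higher on all 4 arrays (28.6%), where 21.1% of all genes were, and none was lower on all 4, where 12.7% of all genes were. Signals of both genotypes did not overlap, with APPswe/PS1dE9 above, in 6 of the 35, where this held for 10.9% of all genes. Besides 4 of the higher genes these were Ift74 and Ift122. At an unadjusted p of 0.05, 10 of 35 genes passed, or 28.6%, beside 29.9% of all genes. The median of the 35 ratios was 0.17, 0.10, 0.07 and 0.09 on replicates 1 to 4, against 0.02, 0.0012, 0.02 and 0.04 over all genes. Above 0 stood 28, 21, 22 and 25 of the 35 genes, against 53.0%, 50.1%, 53.1% and 57.1% of all genes.

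IFT-B, the complex of outward transport, was the largest group. All 10 fitted ratios were above 0, with a median of 0.14, where 7359 of all 13658 genes were above 0. Under median centring 5 of the 10 were, with a median of 0.0014. The test was passed by 2 of the 10, both higher, where 10.3% of all genes were higher. Ift74, which binds tubulin together with Ift81, came nearest among the others at 0.24 ± 0.07 (adjusted p = 0.0782). Its log2 intensity was 11.09, 10.96, 10.88 and 10.91 in APPswe/PS1dE9 cultures and 10.80, 10.57, 10.81 and 10.68 in WT cultures. Ift81 itself was at 0.06. The core subunit genes Ift52, Ift46 and Ift88 were at 0.17, 0.16 and 0.11. Ift27, a Rab-like GTPase that helps the BBSome leave the cilium, was at 0.13. Ift20, which also works at the Golgi, was at 0.05, and the peripheral subunit gene Ift57 was at 0.03.

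Ift46 was the gene whose probes differed most. Its brighter probe had ratios of 0.29, 0.19, 0.08 and 0.07, a fitted 0.16 ± 0.06. The dimmer probe, near a log2 intensity of 7, had ratios of 0.21, -0.09, -0.51 and -0.42 and a fitted -0.20 ± 0.07. Neither passed after adjustment (adjusted p = 0.187 and 0.163). So the direction of Ift46 depends on the probe.

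IFT-A carries cargo back from the tip and helps membrane proteins enter. Besides Wdr35, Ift122 had ratios of 0.11, 0.31, 0.24 and 0.08 and a fitted 0.19 ± 0.07 (adjusted p = 0.170), and its other probe gave 0.18. Its signals did not overlap between genotypes. Wdr19, also called IFT144, was at 0.10. Ttc21b, which encodes IFT139, was lowest of all 35 genes at -0.15 ± 0.07 (adjusted p = 0.217), with ratios of -0.25, -0.43, -0.0046 and 0.07. The untested Ift140 had array ratios of -0.05, -0.05, -0.17 and -0.04.

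Kinesin-II is a motor of the chains KIF3A and KIF3B with the adaptor KAP3, and none of its genes passed. Kifap3, which encodes KAP3, had the smallest p of the 3. Its log2 intensity was 12.85, 13.04, 12.83 and 12.90 in APPswe/PS1dE9 cultures, against 12.79, 12.89, 12.92 and 13.14 in WT cultures. The groups overlapped, and the ratio was -0.03 with a 95% interval of -0.19 to 0.13. Kif3b was at -0.02 (-0.19 to 0.15) and Kif3a at -0.0047 (-0.20 to 0.19), with the other probe of Kif3a at 0.04.

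Among the 7 BBSome genes, Bbs1 and Bbs5 followed Bbs9. Bbs1, whose product binds the GTPase ARL6, had ratios of 0.38, 0.20, 0.20 and 0.08 and a fitted 0.22 ± 0.07 (adjusted p = 0.112), and its other probe gave 0.18. Bbs5 was at 0.20 ± 0.10, with ratios of 0.53, -0.05, 0.18 and 0.16. It passed without replicate 2 (0.35, adjusted p = 0.0295) and not with all arrays (adjusted p = 0.284), and its other probe gave 0.09. Bbs2 was at 0.09 and Ttc8, which encodes BBS8, at 0.04. Bbs4 and Bbs7 were at -0.0024 and -0.0084, within an interval of -0.18 to 0.18 for Bbs4 and -0.17 to 0.15 for Bbs7.

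Bbs10 and Bbs12 encode chaperonin-like proteins that help assemble the BBSome. Bbs12 had a log2 intensity of 8.17, 8.20, 8.12 and 8.35 in APPswe/PS1dE9 cultures and of 8.21, 8.28, 8.42 and 8.25 in WT cultures. These overlapped, and the ratio was -0.08 ± 0.08 (adjusted p = 0.608). Bbs10 was at -0.06, with its other probe at -0.07.

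The ARL GTPases act at the ciliary membrane. Arl6, which recruits the BBSome to membranes, had the smallest p of the 3, with a log2 intensity of 10.40, 10.39, 10.09 and 10.35 in APPswe/PS1dE9 cultures, against 10.09, 10.23, 10.20 and 10.14 in WT cultures. APPswe/PS1dE9 was higher on replicates 1, 2 and 4 and lower on replicate 3. The fitted ratio was 0.14 ± 0.08 (adjusted p = 0.332), and its other probe also gave 0.14. Arl3, which releases lipid-modified cargo inside the cilium, was at 0.05. Arl13b, a protein of the ciliary membrane that activates ARL3, was at -0.09 with both of its probes.

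In the transition zone, 1 of 6 genes passed as higher, where 10.3% of all genes did. After Tctn2 came Tmem67, a membrane receptor also called meckelin, at 0.18 ± 0.08 (adjusted p = 0.239), with ratios of 0.22, -0.01, 0.10 and 0.41. Tctn1, the relative of Tctn2, was at 0.09 with an interval of -0.08 to 0.26, and that of Tctn2 was 0.26 to 0.60. The difference between these genes was not tested. Mks1 was at 0.06. Rpgrip1l, a scaffold of the zone, and Cep290, a long coiled-coil protein there, were at -0.02 and -0.07.

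The 95% intervals bound what these arrays could miss as processed here. For the 30 genes that did not pass, they lay between -0.31 and 0.45. So in each gene a difference of 0.5 or more on the log2 scale lies outside its interval. The bound is less firm for dim genes, whose ratios the offset draws towards 0. Under some processing alternatives the ratio of Bbs10 reached -0.36 and that of Cep290 -0.34. The lower ends of their intervals were -0.28 and -0.21. SE of the 35 genes were 0.06 to 0.10, and the smallest difference called among all 26884 probes was 0.26 in size. No fitted difference below that size passed with 4 arrays, and some above it did not pass either, such as Nes at 0.55 (limma adjusted p = 0.0520). So it is no limit on the true differences. Of the 9 genes with 2 tested probes, 7 had fitted ratios within 0.1 of each other, the exceptions being Bbs5 and Ift46.

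**Figure D3:**
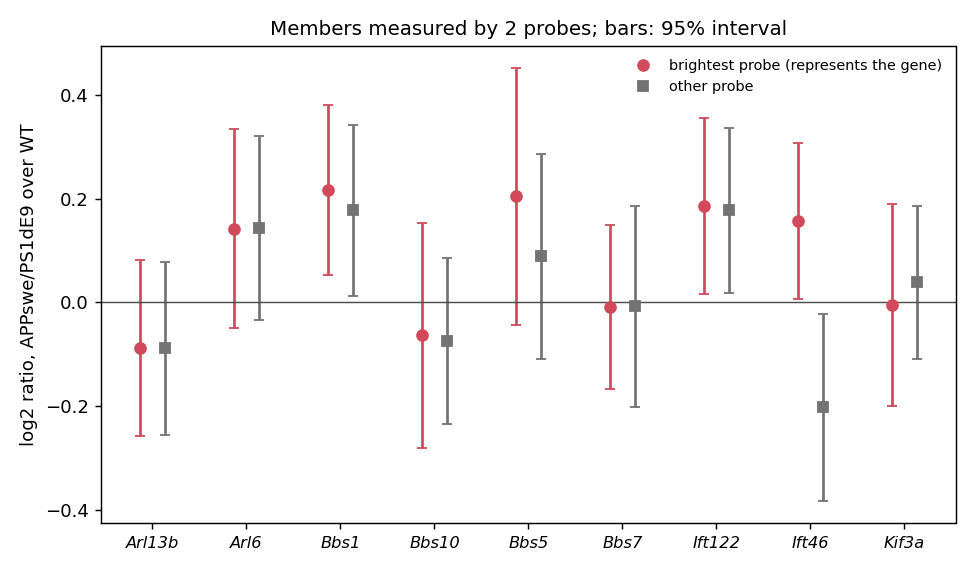
Fitted log2 ratio of APPswe/PS1dE9 over WT (vertical axis) with its 95% interval for the 9 genes with 2 tested probes, the brighter probe at the left of each pair. The pairs nearly coincide except in Bbs5 (0.20 and 0.09) and in Ift46, where they lie on opposite sides of 0 (0.16 and -0.20).

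Dye orientation moved with several of these ratios. In 9 of the 35 genes (25.7%) both arrays of one orientation were above 0 and both of the other below, as in 17.3% of all genes. They were Ift27, Ift57, Ift88, Kif3b, Kifap3, Bbs7, Arl3, Mks1 and Cep290. Mks1, a protein of the transition zone gate, had ratios of 0.37 and 0.29 with APPswe/PS1dE9 in Cy3 and of -0.34 and -0.06 with it in Cy5. Ift27 had 0.43 and 0.29 in the first orientation and -0.13 and -0.06 in the other, and Ift57 ran the other way, with -0.12 and -0.17 against 0.27 and 0.12. The dye term had an unadjusted p under 0.05 in 6 of the 35 genes (17.1%), beside 14.5% of all genes, and it passed limma's adjusted threshold in none of the 26884 probes. Dye orientation and culture cannot be told apart here, since each culture was labelled with 1 dye. Tctn2, Ift80, Wdr35, Ift172 and Bbs9 were above 0 in both orientations.

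**Figure D4:**
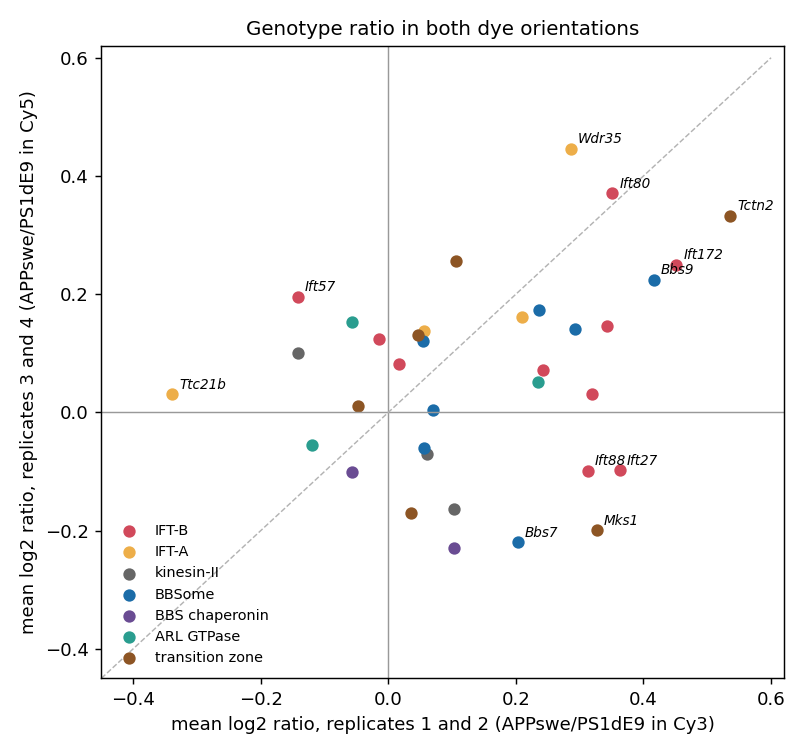
Mean log2 ratio of APPswe/PS1dE9 over WT on replicates 1 and 2 (horizontal) and on replicates 3 and 4 (vertical) for the 35 genes, coloured by complex; the dashed line marks equal values. The 5 higher genes lie in the upper right, while Mks1, Bbs7, Ift27 and Ift88 lie at the lower right, positive in 1 orientation and negative in the other.

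The ratios of genes with and without the motif overlapped. The 8 measured genes with an X-box had a median of 0.08 (-0.01 to 0.43), with 1 of 8 higher, which was Tctn2. The 7 with a half-site alone had a median of 0.13 (-0.09 to 0.37) and 2 of 7 higher, Ift172 and Wdr35. The 16 with a window and neither motif had a median of 0.04 (-0.15 to 0.32) and 1 of 16 higher, Bbs9. Ift80, Ift81, Ift122 and Tmem67 were not classed. Of all 13658 measured genes, 10.3% were higher. No test was made of the differences between these classes.

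Other genes of the primary cilium had a similar median, while their share of higher genes was 6.67%, below the 10.3% of all genes. Of 60 measured genes in a list of other IFT, dynein-2, BBSome, transition zone, basal body and ciliary membrane genes, 4 rose, 1 fell and 55 did not pass, with a median of 0.08 (-0.01 under median centring). None of the 60 passed limma's adjusted threshold without replicate 3, without replicate 4 or on the same-sex arrays. In those fits 16, 12 and 6 had an unadjusted p under 0.05, beside 5158 of 26842, 5354 of 26842 and 3181 of 26824 probes. With the processed signals 1 was higher. Ttc30b and Ttc30a2, near-identical copies of an IFT-B subunit that a probe may not separate, were at 0.55 ± 0.06 (adjusted p = 0.00448) and 0.43 ± 0.08 (adjusted p = 0.0221). Ttc30a1, a further gene of that series named after its value was seen, was at 0.09 ± 0.06 and did not pass (adjusted p = 0.428). Tmem107, a transition zone membrane protein, was at 0.46 ± 0.07 (adjusted p = 0.0151). Dync2li1, a chain of the dynein-2 motor of inward transport, was at 0.28 ± 0.06, near the threshold (adjusted p = 0.0495), and passed in 2 of 11 processing alternatives and in none of the 4 fits that left out an array. Bbip1, the smallest BBSome subunit, named after its value was seen as the one that fell, was at -0.29 ± 0.07 (adjusted p = 0.0497). No gene of the list was lower under 7 of 11 processing alternatives or without replicate 2, 3 or 4.

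Genes of motile cilia, the beating cilia of ependymal cells, had higher ratios. Of 29 measured genes 22 rose, none fell and 7 did not pass, with a median of 0.68. Of all genes 10.3% were higher and 2.16% lower. In the 23 genes well above background on all arrays in both genotypes, 20 rose. The count of 22 was 10 without replicate 3, 7 without replicate 4, 9 on the same-sex arrays and 13 with the processed signals, and none fell in these fits. Over all probes, the count of 1851 higher was 499, 364, 454 and 757 in the same fits. Rsph1 (1.55 ± 0.07) of the radial spokes, Tekt1 (1.27 ± 0.07) of the microtubule lumen, Enkur (1.39 ± 0.09) and Ccdc153 (1.84 ± 0.09) had the smallest p, with adjusted p between 0.000279 and 0.000780, and these 4 passed in each of those fits. Summed over the 29 genes, the intensity was 23607 to 27793 in APPswe/PS1dE9 cultures, against 16347 to 17701 in WT cultures, which do not overlap. Summed over the 35 primary cilium genes it was 54334 to 58860 in APPswe/PS1dE9 cultures and 51212 to 53662 in WT cultures. These do not overlap either but lie closer together. On replicates 1 to 4 these sums were 58860, 57033, 54857 and 54334 in APPswe/PS1dE9 cultures, against 51212, 52117, 53231 and 53662 in WT cultures. So the difference was smaller on replicates 3 and 4, with APPswe/PS1dE9 in Cy5. Summed over the 60 other cilium genes, the genotypes overlapped (86570 to 98889 against 81538 to 89849). No sum over all genes was made. The motile genes also use IFT, and their part in the ratios of the 35 genes was not tested.

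**Figure D5:**
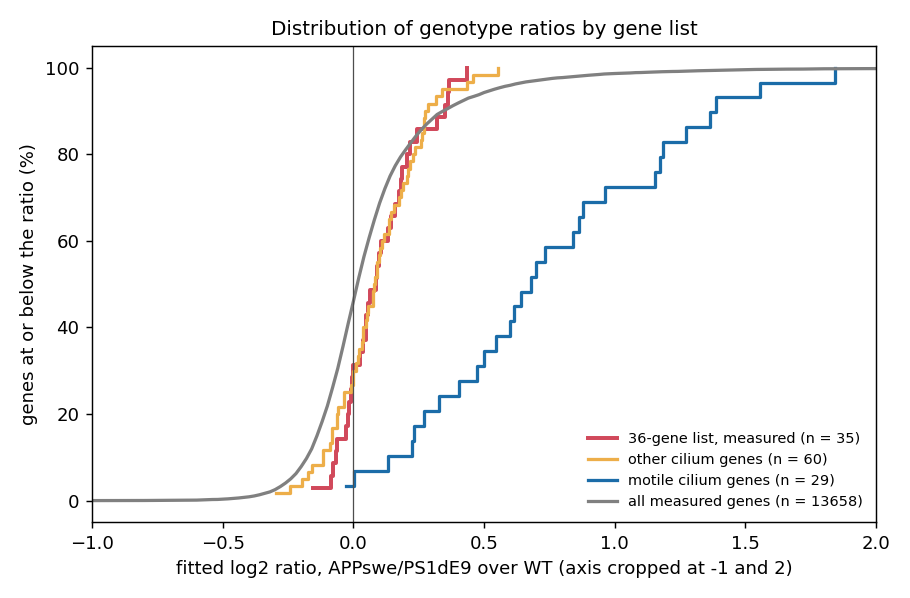
Share of genes (vertical axis, %) at or below a fitted log2 ratio of APPswe/PS1dE9 over WT (horizontal axis) for the 35 measured genes, 60 other cilium genes, 29 motile cilium genes and all 13658 genes. The 35 genes and the other cilium genes run together, with medians of 0.09 and 0.08, and the motile cilium genes lie to the right with a median of 0.68.

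Of 6 measured transcription factor genes of ciliogenesis, 1 rose (16.7%, where 10.3% of all genes did). Foxj1, the master regulator of motile cilia, was at 1.15 ± 0.08 (adjusted p = 0.000983), and at 1.27 on the same-sex arrays (adjusted p = 0.00828). Foxj1, Rfx2 and Rfx3 are also in the motile cilium list, in which 21 of 26 genes rose without them. Rfx2 and Rfx1, members of the family that binds the X-box, were at 0.27 ± 0.06 (adjusted p = 0.0527) and 0.21 ± 0.06 (adjusted p = 0.105). Rfx7 was at -0.11. Of 8 measured hedgehog pathway genes, 1 rose (12.5%, where 10.3% of all genes did). Gas1, a co-receptor of sonic hedgehog, was at 0.36 ± 0.06 (adjusted p = 0.0191), with its other probe at 0.07. It did not pass without replicate 3 (adjusted p = 0.109), without replicate 4 (0.133) or on the same-sex arrays (0.278). The co-receptor Boc was at 0.30 (adjusted p = 0.0661), and the transcription factors Gli3 and Gli2 were at 0.25 (adjusted p = 0.0824) and -0.26 (adjusted p = 0.0595).

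Markers of some other cell types moved in the same cultures, where 10.3% of all genes were higher and 2.16% lower. Over all probes 1851 were higher, against 499 without replicate 3, 364 without replicate 4 and 454 on the same-sex arrays. Of 11 microglia markers 10 rose, and 9 of 10 on the same-sex arrays. Of the 6 well above background on all arrays in both genotypes 5 rose, and their ratios were 0.11 to 2.23. The summed intensity, without C1qa, was 12773 to 16871 in APPswe/PS1dE9 cultures, against 8787 to 10866 in WT cultures. Astrocyte markers rose in 7 of 11 (3 without replicate 3, 0 without replicate 4, where 9 had an unadjusted p under 0.05, and 2 on the same-sex arrays), with a median of 0.46. They had a summed intensity of 197754 to 222175 in APPswe/PS1dE9 cultures and 132626 to 172329 in WT cultures. Choroid plexus markers rose in 4 of 8, and in 0 to 1 without replicate 3 or 4 and on the same-sex arrays. Their summed intensity was 5880 to 9715 in APPswe/PS1dE9 cultures, against 3930 to 5226 in WT cultures. Of 10 neuron markers 1 rose and 3 fell (0 and 3 on the same-sex arrays), with a summed intensity of 90346 to 104343 in APPswe/PS1dE9 cultures and 98491 to 116748 in WT cultures. Of 7 progenitor markers 2 rose and 1 fell (2 and 0 on the same-sex arrays), and of 7 oligodendrocyte lineage markers none passed. Every measured marker was well above background on at least 1 array in either genotype. In WT cultures, though, Tyrobp, Trem2, C1qa and Ctss were so on 1 of 4 arrays, and Cx3cr1 and the choroid plexus marker Kcne2 on 2. Ratios of such dim markers are drawn towards 0 by the offset. Other probes of the higher markers Csf1r (0.02), Folr1 (0.02) and Prom1 (0.31) did not pass. Those of Gfap, Aqp4, Ntsr2, Cx3cr1 and Dcx passed in the same direction as the brightest probe. The part of these cell types in the ratios of the cilium genes was not tested.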

How the data were processed

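Per the file headers, the scanner software was Feature Extraction 11.0.1.1, with all arrays on 1 slide and 1 scan. The authors deposited raw median intensity values for spots and local background, one pair a channel. They also deposited processed intensity values and the log10 ratio of these. Per the file headers, those were background-subtracted and dye-normalized. A value table of 29350 spots came with no stated scale. Set against the scanner files, the log2 values that the authors deposited in it were ratios of processed signals, APPswe/PS1dE9 over WT and uncentred, with column medians of -0.0797, -0.155, -0.0373 and -0.0378.

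The design named mean signals, and the files' median signals were used. They went through normexp (offset 50) and loess within each array in limma 3.58.1 (R 4.3.3). Control spots and outlier spots were left out and spots of a probe averaged. Kept were the 26884 of 55681 probes that at least 3 of 4 arrays showed well above background for either genotype. The brightest kept probe stood for a gene. The model held genotype and dye, leaving 2 residual degrees of freedom beside 4.16 prior ones, and p-values were two-sided. Log2 intensities per channel came after Aquantile. The labels do not say whether cultures came from separate animals, so a p-value covers the spread between arrays, whose number limits the precision. A RefSeq table of GRCm38.p6 gave names. The arrays use mm9, so no array coordinates are given.

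The members and all lists were chosen with earlier results of these data known, so their counts are no independent evidence. By rule, every member is named, values on every array are given for each member past the threshold and, in a complex with none, for the member of smallest p, and 4 genes of smallest p are named from each other cilium list. Values on arrays for further members were chosen after they were seen. The fit was tested on simulated data. In all 15 alternatives were planned and 1 added.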

Additional observations from a re-analysis of the deposited data

Results flagged for a closer look

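None of the 35 measured genes had an array that stood apart from the other 3. Among the other named genes, the motile cilium gene Ccdc153 did: its log2 ratio of APPswe/PS1dE9 over WT was 1.47 on replicate 2, against 1.96, 1.93 and 2.00 on the other arrays. Enkur did as well, with 1.02 on replicate 2, against 1.52, 1.49 and 1.51. Chance flags about 5% of such groups, and 51 genes were examined.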

How the results depend on the processing

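Of the 35 genes, 5 were higher with normexp, loess and the filter, as they were with Aquantile, with 1 probe a gene and with a filter in both channels. The count was 3 with an offset of 10 and without the dye term, 2 without background subtraction and 1, Tctn2, with limma's trended robust variance. It was 0 with the processed signals, the deposited value table, median centring or no filter, and on the same-sex arrays (chosen after seeing the data). In those fits limma's unadjusted p was under 0.05 in 9, 9, 5, 10 and 3 genes. Over all tested probes this held for 7664 of 26884, 7657 of 26931, 6931 of 26884, 7375 of 55681 and 3181 of 26824. The member count was 0 to 5 with an array left out. No member was lower under any of these. Over all probes, 1851 were higher and 512 lower. These counts were 757 and 225 with the processed signals, 752 and 216 with the value table, 1050 and 98 without the filter and 454 and 7 on the same-sex arrays. Lower probes numbered 300 without background subtraction, 299 without the dye term and 1687 under median centring. With an array left out, 364 to 2832 were higher and 5 to 721 lower. The share of called probes that were higher was 78.3%, and 48.1% under median centring, 91.5% without the filter and 96.0% and 98.6% without replicates 3 and 4. The cause was not tested. No called member changed sign, and 19 uncalled ones, with ratios up to 0.13 in size, did under some alternative.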
